A study of Mus musculus with 6 samples.

Results

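Neural stem cells (NSCs) of the mouse were profiled by ChIP-seq for H3K9me3, the trimethylated form of lysine 9 on histone H3, and the regions described here are those that gained a peak near a protein-coding promoter after PHF8 knockdown. ChIP-seq sequences the DNA that an antibody against the mark brings down with chromatin. Peaks of the 4 ChIP libraries on chromosomes 1 to 19 were pooled and merged where they overlapped or touched. A merged region counted as gained when both shPHF8 libraries and neither shCTR library had a peak in it, and as promoter-proximal when its nearest edge was at most 3 kb from any transcription start of a protein-coding gene in GENCODE (mm10, the same assembly as GRCm38). Of the 70705 merged regions, 314 met this rule, and they lay next to 323 of 20807 protein-coding genes. The regions were thus selected on the presence and absence of peaks, so the values that chose them are given as a description. The NSCs were cultured from the cerebral cortex of C57BL/6J embryos at day E12.5 and kept as progenitors with EGF and FGF. They were infected with a lentivirus carrying a scrambled control shRNA (shCTR, 2 ChIP libraries) or an shRNA against PHF8 (shPHF8, 2 ChIP libraries), and infected cells were selected with puromycin. Both conditions therefore share the infection and the selection, the shPHF8 cells are a knockdown that keeps the gene, and the level of PHF8 itself is not part of these data. The lists hold positions of broad peaks and no measure of their strength, and the 1 input per condition was not used here. In a bulk culture, more cells that carry the mark and more of the mark per cell cannot be told apart.

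PHF8 is a JmjC demethylase that removes methyl groups from mono- and dimethylated H3K9 and from H4K20me1. The enzymes SUV39H1 and SUV39H2 turn dimethylated H3K9 into the trimethylated form, so the study asked whether H3K9me3 accumulates when PHF8 is lost. H3K9me3 is bound by HP1 proteins and marks compact, silent chromatin. In mammalian cells it is known at satellite repeats and transposons, at clusters of KRAB zinc finger genes and at gene families that are used in other tissues. CpG-rich promoters, or CpG islands, belong mostly to genes used in many cells and are usually free of repressive H3K9 methylation, whereas promoters of tissue-restricted genes are often poor in CpG.

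The promoters inside the gained regions were poor in CpG, and 9 of them are shown because the contrast between them carries this result. Each is the RefSeq window of 300 bases (GRCm38.p6) from 250 bases before to 50 after the start of the gene, written 5′ to 3′ on the strand of the gene with every CG in capitals. The first pair, 4933414I15Rik (chr11:50943676-50943975, minus strand) and Morc2b (chr17:33139634-33139933, minus strand), held the most CpG for their base composition. Ffar2 (chr7:30823726-30824025, minus strand), Wnt8b (chr19:44493222-44493521, plus strand) and Klk12 (chr7:43768850-43769149, plus strand) lay in 3 of the gained regions with the most covered bases. Cyp2b19 (chr7:26756892-26757191, plus strand), Cyp2a4 (chr7:26306942-26307241, plus strand), Ceacam5 (chr7:17713002-17713301, plus strand) and Olfr1366 (chr13:21537978-21538277, minus strand) were among the 5 windows with the lowest ratio.
4933414I15Rik: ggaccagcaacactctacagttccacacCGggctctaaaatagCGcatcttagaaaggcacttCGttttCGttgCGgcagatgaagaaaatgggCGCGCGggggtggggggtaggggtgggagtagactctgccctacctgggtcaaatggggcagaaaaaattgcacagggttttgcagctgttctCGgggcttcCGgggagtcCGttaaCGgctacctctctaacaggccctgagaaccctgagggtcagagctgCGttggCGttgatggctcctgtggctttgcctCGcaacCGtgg
Morc2b: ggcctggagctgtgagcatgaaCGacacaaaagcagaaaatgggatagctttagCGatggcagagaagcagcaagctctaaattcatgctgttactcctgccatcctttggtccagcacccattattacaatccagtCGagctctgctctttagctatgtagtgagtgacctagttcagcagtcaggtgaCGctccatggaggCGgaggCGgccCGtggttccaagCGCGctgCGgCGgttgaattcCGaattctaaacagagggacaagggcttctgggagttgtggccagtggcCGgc
Ffar2: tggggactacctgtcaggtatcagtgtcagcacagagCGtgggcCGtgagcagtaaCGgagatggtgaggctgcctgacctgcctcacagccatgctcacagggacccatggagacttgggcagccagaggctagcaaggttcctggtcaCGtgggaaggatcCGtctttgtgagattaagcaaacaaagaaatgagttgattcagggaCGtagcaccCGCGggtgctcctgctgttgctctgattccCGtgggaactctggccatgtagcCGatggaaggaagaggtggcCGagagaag
Wnt8b: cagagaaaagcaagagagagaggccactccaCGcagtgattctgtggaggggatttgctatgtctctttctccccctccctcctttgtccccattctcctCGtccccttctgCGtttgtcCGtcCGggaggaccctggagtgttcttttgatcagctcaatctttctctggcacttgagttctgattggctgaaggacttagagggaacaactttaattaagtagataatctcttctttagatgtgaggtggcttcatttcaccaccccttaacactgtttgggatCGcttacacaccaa
Klk12: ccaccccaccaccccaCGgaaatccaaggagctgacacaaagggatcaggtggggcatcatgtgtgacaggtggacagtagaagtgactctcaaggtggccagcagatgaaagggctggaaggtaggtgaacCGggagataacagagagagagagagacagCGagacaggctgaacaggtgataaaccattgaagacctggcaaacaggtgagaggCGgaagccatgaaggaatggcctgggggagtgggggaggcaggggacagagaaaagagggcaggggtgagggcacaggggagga
Cyp2b19: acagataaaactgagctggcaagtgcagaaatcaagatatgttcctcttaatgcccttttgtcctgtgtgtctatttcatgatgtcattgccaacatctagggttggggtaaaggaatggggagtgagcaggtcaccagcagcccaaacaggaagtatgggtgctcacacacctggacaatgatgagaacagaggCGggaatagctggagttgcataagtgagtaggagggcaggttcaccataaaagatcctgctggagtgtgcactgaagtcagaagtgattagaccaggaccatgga
Cyp2a4: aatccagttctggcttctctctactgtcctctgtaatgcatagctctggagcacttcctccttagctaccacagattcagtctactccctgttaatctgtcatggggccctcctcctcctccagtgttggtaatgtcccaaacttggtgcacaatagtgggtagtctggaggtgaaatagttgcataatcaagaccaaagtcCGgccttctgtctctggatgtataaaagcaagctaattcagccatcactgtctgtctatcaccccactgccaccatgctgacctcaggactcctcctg
Ceacam5: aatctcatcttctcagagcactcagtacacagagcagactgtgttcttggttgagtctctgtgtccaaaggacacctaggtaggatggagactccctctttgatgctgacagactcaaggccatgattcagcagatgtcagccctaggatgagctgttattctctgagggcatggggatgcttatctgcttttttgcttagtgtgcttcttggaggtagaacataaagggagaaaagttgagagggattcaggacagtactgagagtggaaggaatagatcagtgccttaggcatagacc
Olfr1366: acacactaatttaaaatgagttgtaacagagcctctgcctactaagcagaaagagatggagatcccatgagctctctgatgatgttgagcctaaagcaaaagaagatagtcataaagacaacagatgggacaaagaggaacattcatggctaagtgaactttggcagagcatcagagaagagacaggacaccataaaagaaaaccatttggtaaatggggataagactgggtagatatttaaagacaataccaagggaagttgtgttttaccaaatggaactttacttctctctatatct

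The first window held 16 CpG and that of Morc2b 13, against 11 for Ffar2, 6 for Wnt8b and 4 for Klk12. The Ffar2 window shown was its richest, and its other windows inside the same region held 3 CpG each. The Cyp2b19 and Cyp2a4 windows held 1 CpG each, and those of Ceacam5 and Olfr1366 held no CG. The 5 windows with the highest ratio were completed by Abcg2, a drug efflux pump, Gcnt2, a glycosyltransferase of blood group I antigen, and Ano5, a membrane protein of muscle, with 10, 8 and 15 CpG. The 5 with the lowest were completed by Antxrl with 1. In all, 47 RefSeq windows of 42 genes lay wholly inside a gained promoter-proximal region, and their median was 5.00 CpG, against 14.0 over the 19152 windows of chromosomes 1 to 19. A window was called CpG-rich when its observed to expected CpG ratio was at least 0.6 and its GC content at least 50%. By this measure 2 of the 47 windows were CpG-rich (4.26%, 95% Wilson interval 1.17 to 14.2), those of 4933414I15Rik and Morc2b. The share was 55.2% (46.5 to 63.6) in the 125 windows inside regions lost near promoters, 39.5% (36.6 to 42.4) in the 1105 windows inside regions found in all 4 libraries and 47.8% over all windows. Neither the sequence nor the CpG number entered the rule, and the interval of the gained regions lay below those of the other sets. These intervals cover counting error over windows only, and several windows can share a region. The 47 windows lay in 42 distinct gained regions, since Ffar2, Krt13 and Ggt1 each had more than 1 window. Leaving out any 1 of the 4 libraries kept the share between 3.70 and 5.88% in gained and between 47.4 and 53.7% in lost regions. With the same number of widest peaks per library the shares were 9.43 and 56.3%. The share in gained regions was 17.6% when at least 50% of a region had to be covered and 14.5% with peaks of at least 2 kb, against 59.5 and 58.9% in lost regions.

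The same contrast was seen over whole libraries, but their counts include windows inside the gained and lost regions. These shares are thus not separate from those above. Of the windows wholly inside any peak, 43.8 and 45.3% were CpG-rich in shCTR replicates 1 and 2, and 32.8% in each shPHF8 library, so the conditions did not overlap. The windows inside peaks numbered 1034 and 1200 in shCTR and 1115 and 999 in shPHF8. Those that were CpG-rich numbered 453 and 544 in shCTR and 366 and 328 in shPHF8. The GC content of all peak bases was 45.3 and 45.6% in shCTR and 45.1 and 45.4% in shPHF8, so base composition over all peaks differed between conditions by less than 1 replicate differed from the other. Among short motifs searched on both strands, TATAAA was found in 8 of the 47 windows (17.0%) and in 12.1% of all windows, CACGTG in 1 (2.13%, against 8.05%) and TGACGTCA in 1 (2.13%, against 2.37%). Both CACGTG and TGACGTCA contain a CG, so their shares are not separate from the low CpG number of these windows. Such matches are letters and not shown to be sites.

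**Figure D1:**
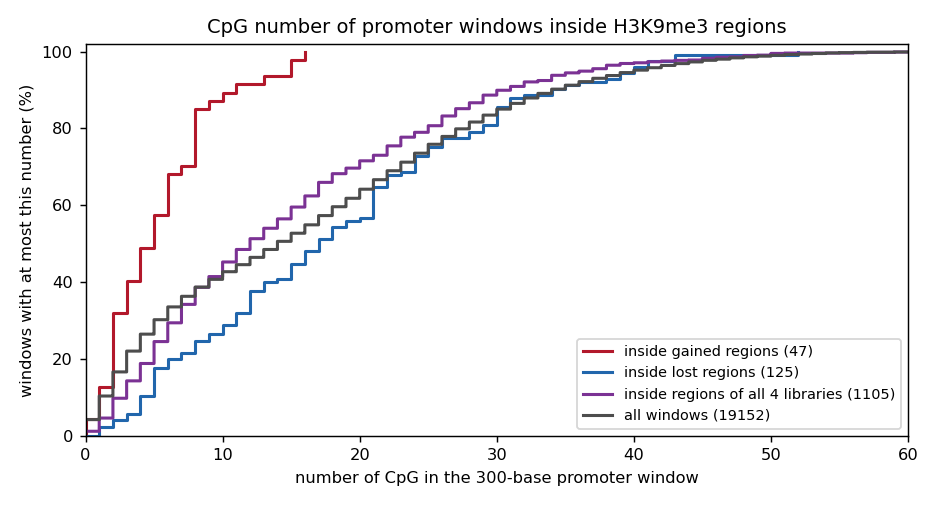
Cumulative share of promoter windows (vertical axis, percent) with at most the number of CpG on the horizontal axis, for windows wholly inside gained, lost and 4-library regions near promoters and for all windows. The curve of the 47 windows inside gained regions reaches its end at 16 CpG, whereas the other 3 curves go on well beyond it.

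Gains near promoters were fewer than losses. Of the 10762 regions within 3 kb of a protein-coding start site, 314 were gained (2.92%) and 769 were lost (7.15%), while 5106 had a peak in all 4 libraries. Over all 70705 regions 4.29% were gained. The other gained regions comprised 893 in the bodies of protein-coding genes away from start sites and 1824 outside these genes. The order of gains and losses near promoters depended on what counted as a peak. It turned round, to 870 gained against 777 lost, when at least 50% of a region had to be covered, and to 621 against 325 with peaks of at least 2 kb. With fewer libraries to meet the rule, gains numbered 612 and 619 without shCTR replicates 1 and 2, and 956 and 570 without shPHF8 replicates 1 and 2. Losses numbered 1705 and 1399, and 1094 and 1334, in the same order. The libraries differed in the form of their peaks. shPHF8 replicate 1 had 44205 peaks of median width 4200 bp, and shPHF8 replicate 2 had 55344 of 2800 bp. The shCTR libraries had 53039 and 53852 peaks of 2400 bp, and the covered length was 156 and 159 Mb in shCTR and 219 and 197 Mb in shPHF8. Read depth is not part of the lists, and in the study's sequencing summary both shPHF8 libraries have fewer mapped reads than shCTR replicate 1 and fewer uniquely mapped reads than either shCTR library. How much of a gain rests on wider calling was not tested. Peaks of a silencing mark do not check the identity of the cells, and of 10 NSC genes 4 and 7 had a peak within 3 kb of the 5′ end in shCTR and 4 and 3 in shPHF8.

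Less than 50% of the gained regions lay on a start site. There were 145 over a start site (46.2%, Wilson 40.7 to 51.7), 82 upstream of it (26.1%) and 87 downstream (27.7%). Regions found in all 4 libraries covered a start site in 48.9% of cases (47.5 to 50.3) and lost regions, which were narrower, in 34.9% (31.6 to 38.3). The 5′ end of a protein-coding gene lay within 3 kb of 153 gained regions (48.7%, 43.2 to 54.2), whether or not it was the nearest start site. Of the others, 73 (23.2%) had the start of another protein-coding transcript within 3 kb. The remaining 88 (28.0%) had only starts of transcripts of the gene that do not themselves code for protein. The 5′ end share was 61.1% (57.6 to 64.5) in lost regions and 59.0% (57.6 to 60.3) in those of all 4 libraries, and the interval of the gained regions lay below both. By bases, the gained regions were 15.7% exon, 57.2% intron and 27.1% intergenic, and 51 lay wholly in an intron and 40 wholly between genes. Their median width was 4600 bp, from 1000 to 18400 bp, and the median was 2600 bp for the regions gained without shPHF8 replicate 1. Peaks of shPHF8 replicate 1 covered a median of 4000 bp per region and those of replicate 2 a median of 3000 bp. Replicate 1 covered more bases in 225 regions, replicate 2 in 67, and both covered the same number in 22.

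The 10 gained regions over a start site with the most covered bases in the less covered shPHF8 library were those of Gm9944, Fam205c, Ffar2, Cyp2b19, Serpina1b, Wnt8b, Klk12, Abcc3, Zfp808 and Phyh. In each of them shCTR coverage was 0 bp in both libraries, as the rule required. The widest stood at chr4:144452001-144470400, over the start of Gm9944, and it also held the whole RefSeq promoter window of Aadacl3, a member of the arylacetamide deacetylase family of lipid esterases. It was covered over 18200 bp in shPHF8 replicate 1 and 13600 bp in replicate 2. Its flanks, from 5 to 50 kb outward, held 17600 and 14800 bp of peaks in shCTR and 61200 and 55000 bp in shPHF8. Other gained regions were not taken out of such flanks.

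Ffar2, the receptor for short-chain fatty acids (chr7:30819201-30828600), was covered over 8600 and 7200 bp in shPHF8 replicates 1 and 2. At Wnt8b (chr19:44488401-44498000), a Wnt ligand made at the cortical hem of the embryonic brain, the values were 9600 and 6400 bp, and the flanks held 6400 and 6800 bp in shCTR against 24200 and 23800 bp in shPHF8. At Abcc3 (chr11:94390601-94398200), an efflux pump for organic anions, they were 6800 and 6000 bp. Coverage was larger in replicate 1 at these 3 genes. Phyh, the peroxisomal hydroxylase of phytanoyl-CoA (chr2:4930801-4941600), had the least even pair, with 10800 and 5600 bp, over the start of a transcript without a coding sequence. Its flanks held 6200 and 4000 bp in shCTR and 3600 and 4000 bp in shPHF8, so the surroundings of Phyh were not more covered in shPHF8. Fam205c (chr4:42863601-42874600) was covered over 10000 and 8000 bp.

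**Figure D2:**
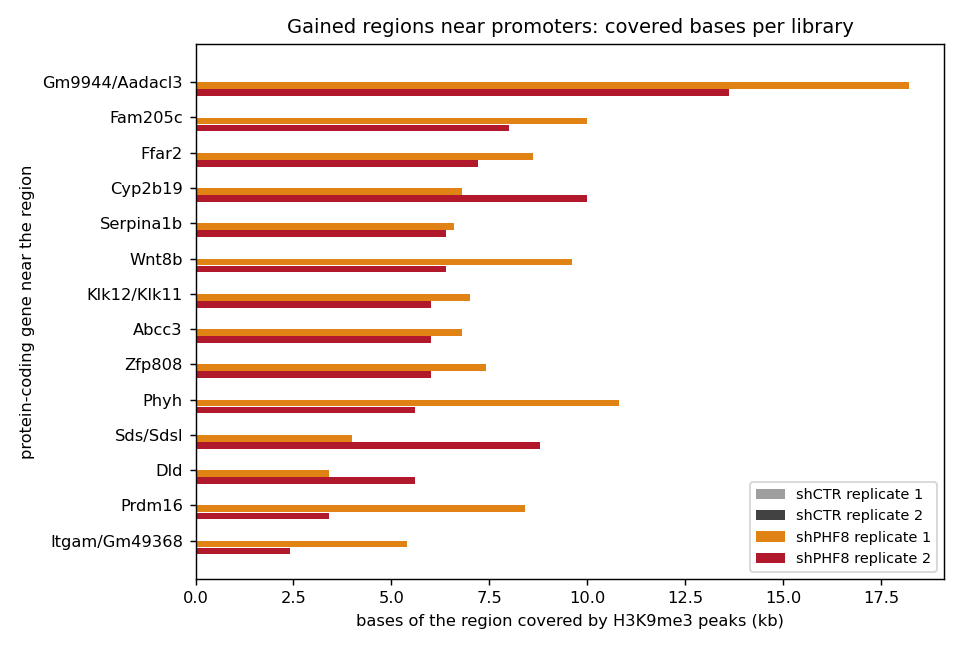
Bases covered by H3K9me3 peaks (kb) in each of the 4 libraries at the 10 gained regions over a start site with the most covered bases in the less covered shPHF8 library, and at the 4 regions of genes from the metabolic, H3K9 and brain cell lists. The shCTR bars are at 0 by selection, and the shPHF8 replicates range from 2.4 kb at Itgam to 18.2 kb at Gm9944.

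Cytochrome P450 genes, which oxidise drugs, steroids and fatty acids, had a gained region at 7 of 100 members (7.0%, 3.43 to 13.7), beside 1.55% of all protein-coding genes. A lost region stood at 3 of these 100 genes. Of the 7 with a gained one, Cyp2a4, Cyp2b23, Cyp2b19 and Cyp2t4 lie within 849 kb of chromosome 7. Such neighbours may not be independent, so the interval over genes may be too narrow. The families were chosen with earlier results of these data known, so their shares are descriptions. Cyp2b19, a skin P450 (chr7:26752801-26763000), was covered over 6800 and 10000 bp in shPHF8 replicates 1 and 2. Cyp2d34 (chr15:82615201-82622000) had 6400 and 3200 bp, and Cyp11a1, the side-chain cleavage enzyme that starts steroid synthesis (chr9:58017801-58022200), had 4400 and 3200 bp. Which replicate was the more covered thus varied among these 3 genes.

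Serpins, inhibitors of serine proteases, had a gained region at 3 of 60 genes (5.00%, 1.71 to 13.7), beside 1.55% of all genes, and a lost region at 3 others. The gained ones were all in the liver-expressed cluster of chromosome 12, so here too the interval over genes may be too narrow. Serpina1b, a copy of alpha-1-antitrypsin (chr12:103824601-103831400), had 6600 and 6400 bp, the most even pair of the 10 most covered. Around it the flanks held 5800 and 0 bp in shCTR and 32800 and 27000 bp in shPHF8. Serpina1c (chr12:103899401-103903400) had 1400 and 4000 bp, and Serpina3f (chr12:104208201-104211600) had 3400 and 2000 bp. The alpha-1-antitrypsin genes are near-identical copies, as are several P450, vomeronasal and Aadacl genes, and the placement of reads that match several copies is not described, so the copy that carries a peak is uncertain.

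Keratins, the filament proteins of skin and hair, were listed together with keratin-associated proteins. A gained region lay at 4 of these 110 genes (3.64%, 1.42 to 8.98), all 4 of them keratins, beside 1.55% of all genes. Krt31, Krt13 and Krt9 lie within 144 kb of chromosome 11, so this interval may also be too narrow. Krt9 (chr11:100184801-100193800) was covered over 4600 and 8400 bp, Krt13 (chr11:100118601-100126000) over 7200 and 4200 bp, and Krt82 (chr15:101545201-101553000) over 7800 and 3600 bp. The kallikreins, secreted serine proteases, had one at 2 of 27 genes. These were the neighbours Klk12 and Klk11, which share the region chr7:43767201-43774200 (7000 and 6000 bp).

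Zinc finger genes with a Zfp symbol had a gained region at 8 of 385 genes (2.08%, 1.06 to 4.05), and the 1.55% of all genes lies within this interval. A region found in all 4 libraries lay at 165 of the 385 (42.9%), beside 22.3% of all genes. Those 165 made up most of the 212 Zfp genes with any region nearby, and over all genes 4646 of 8249 did. Zfp808 (chr13:62212401-62219800) had 7400 and 6000 bp, with 19200 and 10800 bp of flanking peaks in shCTR and 41400 and 50000 bp in shPHF8. Zfp93 (chr7:24272201-24278200) had 5600 and 5000 bp, and Zfp874a (chr13:67431001-67435600) 4600 and 4200 bp.

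Olfactory receptors, used in sensory neurons of the nose, had a gained region at 8 of 1128 genes (0.709%, 0.360 to 1.39), beside 1.55% of all genes. Few of them had a region of any kind nearby, 164 of 1128 (14.5%) against 8249 of 20807 genes (39.6%), so the low share goes with few regions. Olfr382 (chr11:73508801-73517000) had 6800 and 5000 bp, Olfr1366 (chr13:21535201-21539800) 4000 and 3400 bp, and Olfr1306 (chr2:111918001-111923200) 5000 and 3000 bp. The region of Olfr1306 was the most isolated, with 199600 bp to the nearest shCTR peak, and 89.9% of its bases were soft-masked repeats. Vomeronasal receptors, which detect pheromones, had one at 3 of 329 genes, all Vmn1r genes of chromosome 7. Vmn1r158 (chr7:22792201-22799600) had 6000 and 6600 bp, Vmn1r90 (chr7:14564401-14568800) 3600 bp in both, and Vmn1r74 (chr7:11828601-11831600) 2800 and 2600 bp. The cadherins and protocadherins are adhesion molecules, and 64.4% of them had a region in all 4 libraries, beside 22.3% of all genes. They had a gained region at 2 of 90 genes (2.22%), Cdh26 and Pcdhb8. Among solute carriers it was 4 of 372 (1.08%), among potassium channels 1 of 92 (Kcnh1), in the Pramel family 1 of 11 (Pramel7), among Tmem genes 2 of 235, among predicted genes with a Gm symbol 14 of 1228 (1.14%) and among Riken cDNA genes 7 of 539 (1.30%). No gained region was found at taste receptors, UDP-glucuronosyltransferases and sulfotransferases, defensins, Ly6 genes or C-type lectins. Mas-related receptors, histone genes, orphan Gpr receptors and Ifi genes also had none. These families held only 17 to 67 genes. Their Wilson upper limits, from 5.42 to 18.4%, all lie above the 1.55% of all genes.

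Serine, glycine and one-carbon metabolism, the pathway the study turns on, had a gained region at 3 of 40 genes (7.50%, 2.58 to 19.9) and a lost region at 3 (7.50%: Mthfd1, Mthfd1l and Slc7a11), beside 1.55 and 3.83% of all protein-coding genes. Only 2 gained regions lie behind the 3 genes, so the interval over genes is too narrow. The synthesis genes Phgdh, Psat1 and Psph were not among those with a gained region. Sds and Sdsl are neighbours that share the region chr5:120475601-120484400. Sds, serine dehydratase, breaks serine down to pyruvate, and Sdsl is its close relative. The region covered the 5′ end of Sds and had 4000 bp in shPHF8 replicate 1 and 8800 bp in replicate 2. Its flanks held 26600 and 31000 bp in shCTR and 28600 and 33000 bp in shPHF8, and these ranges overlapped. Dld, the lipoamide dehydrogenase of the glycine cleavage system and of pyruvate dehydrogenase, had a region 1148 bp upstream of its 5′ end (chr12:31352601-31358200) with 3400 and 5600 bp. This region was intergenic and 64.9% soft-masked, and its flanks held 3600 and 2400 bp in shCTR and 0 and 2800 bp in shPHF8.

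The neural gene lists held no gained region. There was none at 19 neural stem cell genes (Wilson upper limit 16.8%) or at 48 genes of neuronal differentiation and axon guidance (7.41%). Nor was there any at 47 genes of synapses and ion channels (7.56%). Lost regions lay at 1, 7 and 10 of them (5.26, 14.6 and 21.3%), beside 3.83% of all genes. A region of any kind lay near 68.4, 58.3 and 63.8% of them, against 39.6% of all genes. For gained regions, the 1.55% of all genes is within each limit at these list sizes. There was also none at 32 autophagy and lysosome genes, 35 cell cycle genes, 38 germline genes silenced in somatic cells, 32 imprinted genes or 13 genes of the nuclear factor I and ATF4 group. The 1.55% is within the upper limit of each of these lists too. Among them, 28 of the imprinted and 23 of the germline genes had a region in all 4 libraries (87.5 and 60.5%), beside 22.3% of all genes. Of 35 writers, readers and erasers of H3K9 methylation, only Prdm16, a PR/SET domain regulator of neural stem and brown fat cells, had one (chr4:154526401-154534800, 8400 and 3400 bp), mostly in an intron and over the start of a transcript without a coding sequence. Of 17 markers of other brain cells, only Itgam, the CD11b integrin of microglia and other myeloid cells, had one (chr7:128062001-128068800, 5400 and 2400 bp). Within 3 kb of the 5′ end of Itgam, only shPHF8 replicate 1 had a peak. Genes outside the lists, picked after their values were seen, included Notch3, a Notch receptor (chr17:32128601-32134000, 5400 and 5000 bp). Others were App, the amyloid precursor protein (chr16:85028401-85034200, 5600 and 4600 bp), and Smarca2, a chromatin remodelling ATPase (chr19:26697001-26702200, 4000 and 4800 bp). At all 3 the nearest start site belonged to a transcript that does not code for protein, inside the gene. Synapse and ion channel genes that the lists left out also had gained regions. Picked in the same way, they included Dlgap1 (6400 and 2200 bp), Lrfn2 (5800 and 2200 bp) and Cacna1i (5000 and 4200 bp). The lists thus do not stand for all neural genes. Rgma, a repulsive guidance molecule, was one of 8 genes with 2 gained regions, the others being Gcnt2, Glis3, Gm973, Nlrp5, Pkd1l2, Spsb1 and Tmem260. Cdh26, Gm973, Tacc1 and Tmco5 each had a gained and a lost region near their start sites. Only 3 regions had 3 genes within reach, those of Gm11034, Cib3 and Fam32a, of Nkg7, Lim2 and Cldnd2, and of Sez6l2, Cdiptos and Cdipt.

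The gained regions were spread over all 19 chromosomes, with the most on chromosome 7. It held 40 of the 314 (12.7%, 9.50 to 16.9). Of the 899 promoter-proximal regions of chromosome 7, 4.45% were gained (3.28 to 6.00), against 2.92% over all chromosomes. It was the highest of 19 shares, picked after they were seen. Lost regions near promoters lay on chromosome 7 in 9.36% of cases, regions of all 4 libraries in 8.13%, gained regions in gene bodies in 7.39% and gained regions outside genes in 8.50%. The excess was not limited to promoters, since 261 of all 4610 regions of chromosome 7 were gained (5.66%), also the highest of the 19 chromosomes, against 4.29% overall. With 1 library left out the share of gained promoter-proximal regions on this chromosome was 10.0 to 12.3%. It was 19% when only the 5′ ends of genes counted as start sites. Gained regions also lay near each other. There were 15 stretches of at most 1 Mb with 3 or more of them, which held 47 regions, and 5 of these stretches with 17 regions were on chromosome 7. One of them spanned 849 kb of the Cyp2 cluster (chr7:26305001-27154200) with Cyp2a4, Cyp2b23, Cyp2b19 and Cyp2t4, where the gained regions were covered over 18400 bp in shPHF8 replicate 1 and 18200 bp in replicate 2. Another, of 628 kb (chr7:22792201-23420600), held Vmn1r158, Nlrp4e and 2 regions of Nlrp5, an oocyte gene, with 18600 and 21400 bp. A stretch of 729 kb held Ceacam5, Psg18 and Psg28, members of the carcinoembryonic antigen and pregnancy-specific glycoprotein families. Outside chromosome 7, 3 keratin genes lay within 144 kb of chromosome 11 and the 3 serpins within 387 kb of chromosome 12.

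**Figure D3:**
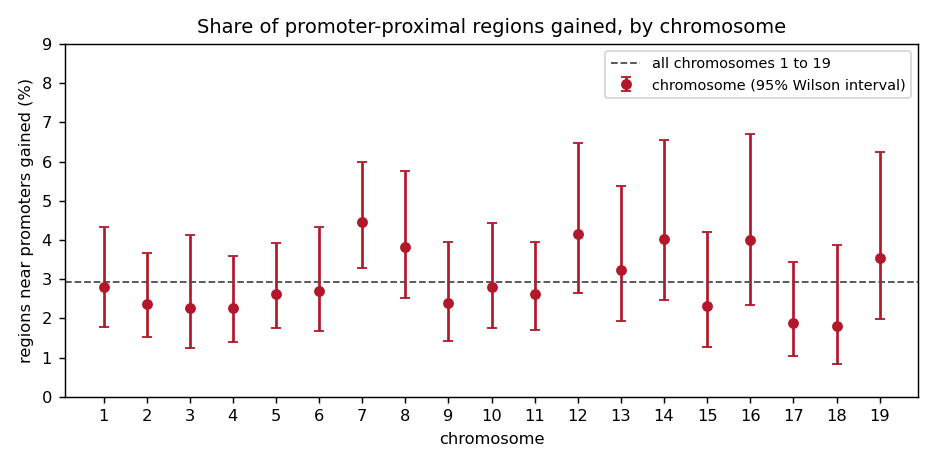
Share of promoter-proximal regions that were gained (percent, with 95% Wilson intervals over regions) on each of chromosomes 1 to 19, with the share over all of them as a dashed line at 2.92%. The interval of chromosome 7, at 4.45%, lies above the line.

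Among the sets compared, the median GC content of the gained regions was nearest to that of 4-library regions near promoters. It was 46.4% (quartiles 44.2 and 48.9), against 47.7% in lost and 46.6% in 4-library regions near promoters. The median was 45.0% in gained regions of gene bodies, 44.2% in those outside genes and 41.9% in the genome. The upper quartile set gained and lost regions apart more than the median did, at 48.9% and 51.9%. The observed to expected CpG ratio had a median of 0.221 and an upper quartile of 0.266 in gained regions, against 0.245 and 0.392 in lost regions, and no gained region exceeded 0.530. Gained regions in gene bodies had 0.209 and 0.263, so the low ratio was not particular to promoters. Soft-masked repeats made up a median of 24.1% of a gained region, 19.5% of a lost one and 25.0% of a 4-library one. The median was 23.9% in gained regions of gene bodies and 31.0% in those outside genes, and the genome had 33.5%. In 25 of the 314 regions more than 50% of bases were repeats, and in another 25 fewer than 10%. Regions over the start site had fewer repeats (median 20.6%) than those upstream of it (31.5%). The GC median stayed within 46.0 to 46.8%, its interval over regions, with any 1 library left out, with at least 50% of a region covered, with peaks of at least 2 kb and with the 5′ ends of genes as start sites.

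**Figure D4:**
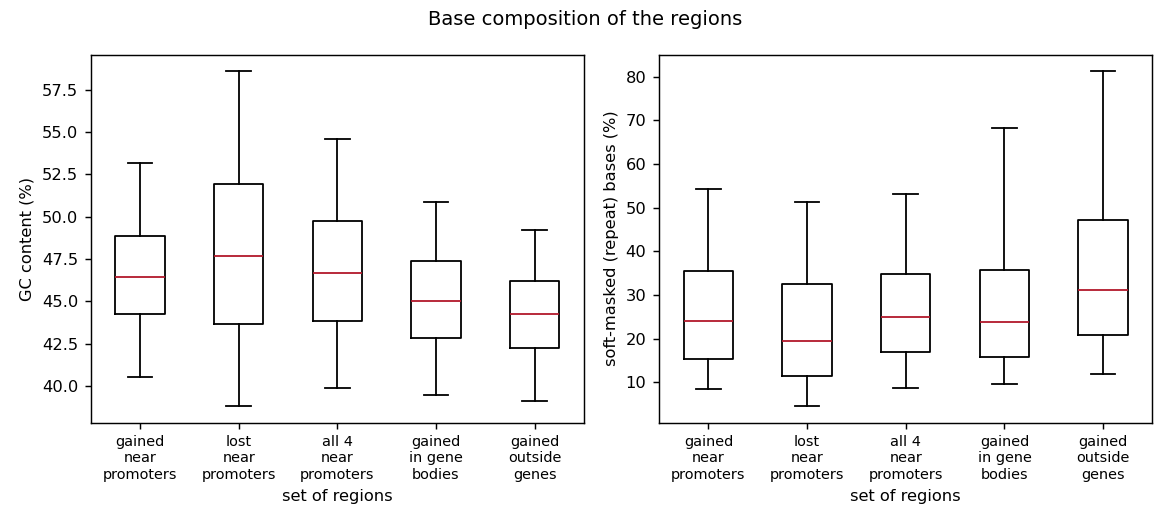
GC content (left, percent) and soft-masked repeat bases (right, percent) of the regions in 5 sets, as boxes from the lower to the upper quartile with the median as a line and whiskers that leave out 5% of regions at each end. The gained regions near promoters have a median GC content of 46.4% and a median repeat share of 24.1%, and the lost regions reach higher in GC.

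The surroundings of the gained regions were also covered more in the shPHF8 libraries. The rule did not use a region's own flanks, but other gained regions were not taken out of them. There were 24 pairs of neighbouring gained promoter-proximal regions within 100 kb. Part of the difference was thus set by the selection, and how much was not tested. From 5 to 50 kb outward of each edge, peaks covered a mean of 8.47 and 7.92 kb per gained region in shCTR replicates 1 and 2, and 14.2 and 12.6 kb in shPHF8 replicates 1 and 2. The conditions did not overlap, and the ratio of means was 1.64. The exact two-sided permutation test gave p = 0.33, the smallest that 2 libraries against 2 allow, so the design cannot reach 0.05. The labels number the replicates without saying that they came from separate cultures, so such a p may measure technical spread only. Scaled to the total covered bases of each library, the ratio was 1.24. The unscaled ratio, 1.64 for the gained regions, was 1.13 around lost and 1.24 around 4-library regions near promoters. It was 1.57 and 1.67 around gained regions in gene bodies and outside genes. No scaled ratio is given for these other sets. More flanking bases in both shPHF8 than in both shCTR libraries were found for 166 of the 314 regions (52.9%), against 41.0% of all regions. Fewer were found for 9 (2.87%), against 8.89%. Away from the start sites, at 10 to 50 kb, a mean of 9.25 and 8.70% of gained regions had a peak at a given distance in shCTR and 15.9 and 14.0% in shPHF8.

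**Figure D5:**
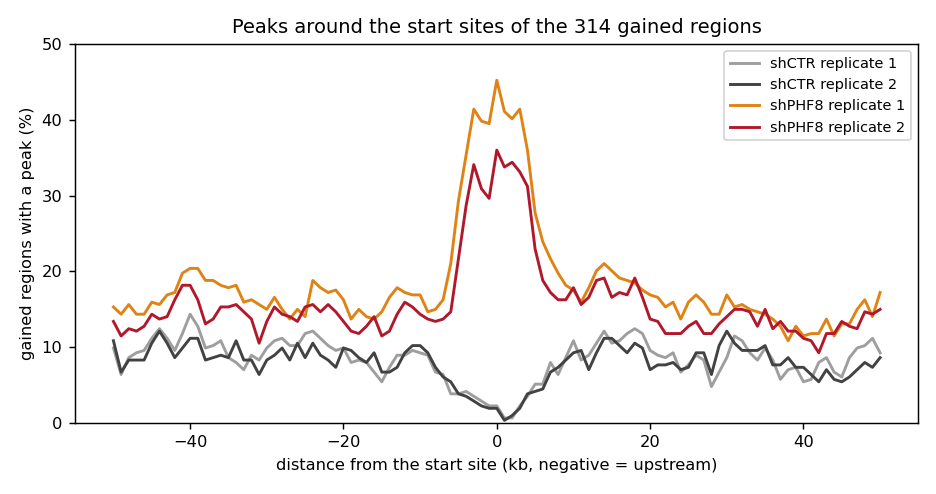
Percent of the 314 gained regions with an H3K9me3 peak at each distance (kb) from the nearest start site, per library. The rise of both shPHF8 curves at 0 kb (45.2 and 36.0%) and the fall of both shCTR curves were fixed by the selection. The separation beyond 10 kb was fixed by it only where gained regions reached or lay there.

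Most gained regions had a control peak in their neighbourhood. The nearest shCTR peak outside the region lay a median of 9200 bp away, from 200 to 199600 bp. It was within 1 kb for 18 regions, within 5 kb for 101, within 10 kb for 166 (52.9%, 47.3 to 58.3) and within 50 kb for 293. The share within 10 kb was 61.2% (57.8 to 64.6) for lost and 67.5% (66.2 to 68.7) for 4-library regions near promoters, and 53.2 and 52.0% for gained regions elsewhere. At Notch3, Ffar2 and Kcnh1 the distance was 800 bp, the smallest gap left between peaks of 1 library, and at Smarca2 it was 83200 bp. With peaks joined across gaps of up to 5 kb, 206 regions were gained and overlapped 188 of the 314. At the edge of the 3 kb rule, the last regions inside were those of Tmem260 (2922 bp from a start site), Gimap9 (2929 bp) and Serpina3f (2944 bp), and the first outside were those of Wasf2 (3030 bp), Calhm3 (3037 bp) and Aldh3a1 (3056 bp). In shPHF8 replicates 1 and 2, the last one inside was covered over 3400 and 2000 bp and the first one outside over 3800 and 2800 bp.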

How the data were processed

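Peak positions of 4 H3K9me3 ChIP-seq libraries (2 shCTR, 2 shPHF8) were used as the authors deposited them, 1 list per library with no height, score or p-value. The study's methods align reads with SOAP2 and call broad peaks with SICER2, and describe this for another histone mark. The submitters' processing notes name mm10, Bowtie2 2.3.5.1, SAMtools 1.9 and deepTools without roles. The window, the gap, the false discovery rate, the use of the input and the placement of reads with several matches are not given in the sources used here. A more deeply sequenced library can have wider peaks called. The lists hold no depth, and the read totals of the study's sequencing summary were not used to scale them.

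Starts were read as 0-based and ends as inclusive, which puts every edge on a grid of 200 bp, and positions are given 1-based. Peaks were merged across libraries, and start sites were those of every transcript of 20807 coding genes (GENCODE M21, chromosomes 1 to 19). GRCm38.p6 gave GC, CpG and soft-masked bases, and RefSeq the promoter windows. Python 3.11.15, numpy 2.4.6, scipy 1.17.1 and matplotlib 3.10.9 were used, and merging and coverage were tested on simulated data against bedtools 2.31.1. Shares have 95% Wilson intervals, which cover counting error only. Flank coverage was compared over libraries with an exact permutation test. A region's own bases were not tested, but other gained regions stayed in the flanks. The regions and gene lists were chosen with earlier results of these data known. Named regions were the 10 over a start site with the most covered bases in the less covered shPHF8 library, those of listed genes (up to 3 per family), the 5 highest and 5 lowest CpG ratios, 3 on each side of the 3 kb limit and the 3 with the most genes. The same-numbered libraries deviated with a correlation of -0.025, so the numbers were not taken to pair them. Alternatives left out each library, changed merging, overlap, peak width, peak number, start sites, distance, flanks and scaling. Those of the CpG-rich and chromosome 7 shares were added after seeing the data.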

Additional observations from a re-analysis of the deposited data

Results flagged for a closer look

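Chromosomes X and Y were outside the regions described above. On chromosome Y, peaks covered more in either shPHF8 library than in either shCTR library, with 39600 and 50400 bp in shPHF8 replicates 1 and 2 (mean 45000 bp) against 7000 and 8800 bp in shCTR. The peaks behind these values numbered 10 and 16 in shPHF8 and 6 in each shCTR library. On chromosome X the order was the opposite, with 344600 and 493400 bp in shPHF8 and 571600 and 546000 bp in shCTR. There were 5 regions gained and 41 lost on X, and 4 gained on Y.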

How the results depend on the processing

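Gained regions near promoters numbered 570 to 956 and lost ones 1094 to 1705 with 1 library left out, against 314 and 769, since fewer libraries had to meet the rule. Gained regions numbered 870 with at least 50% of the region covered and 180 by the midpoint of the region. Gained and lost regions numbered 206 and 507 with peaks joined across 5 kb, 621 and 325 with peaks of at least 2 kb, 192 and 460 within 1 kb of a start site, and 153 and 470 at 5′ ends of genes. Regions without shPHF8 replicate 1 overlapped 266 of the 314, and those of an equal number of widest peaks 257. With 1 library left out, the share over a start site was 34.7 to 44.6%, the median width 2600 to 4400 bp, the median repeat share 23.5 to 25.7% and the share with a shCTR peak within 10 kb 43.0 to 54.8%. The share over a start site was 35.9% at 5′ ends of genes, the width 5400 bp with 50% covered, and the share near a shCTR peak 45.1% with peaks of at least 2 kb. The share on chromosome 7 was 19% at 5′ ends of genes. The CpG-rich share of windows in gained regions was 17.6% with 50% covered and 14.5% with peaks of at least 2 kb. The cause of these shifts was not tested. The flank ratio stayed above 1 in every alternative run, at 1.54 to 1.74 with 1 library left out and 1.63 with the replicate block, which changed no call. Without depth or scores in the lists, a region missing from a library cannot be told from one just under its threshold.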
